A study of Arabidopsis thaliana with 26 samples.

Results

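EXLA1 (AT3G45970) and EXLA2 (AT4G38400) are the expansin-like A genes whose levels after brassinosteroid treatment are described here. Each was read by 1 probe set of the Affymetrix ATH1 array, a one-colour array of short oligonucleotides. They were chosen by name from the genes that stood high after active brassinosteroids in these same arrays, so their changes against mock chose them and are given below as a description, without a test. They are 2 of 22810 probe sets, and both passed the filter on mean intensity that left 17606 to be tested.

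The study measured RNA in whole 7-day-old Arabidopsis thaliana seedlings of the Col background (seed stock N6159, described as de-etiolated), with 1 sample per array and 26 arrays in 13 groups of 2. What genotype N6159 stands for was not stated in the labels, and the seedlings are therefore not called wild type here. Seedlings were treated for 3 h. The groups were campestanol at 10 µM, then at 1 µM each 6-deoxocathasterone, cathasterone, 6-deoxoteasterone, teasterone, 3-dehydro-6-deoxoteasterone, 3-dehydroteasterone, 6-deoxotyphasterol, typhasterol and 6-deoxocastasterone, then castasterone at 100 nM and brassinolide at 10 nM, and a mock treatment. The arrays of a group carry the letters A and B. Whether the letters stand for separate cultures is not stated, so every p-value below rests on the spread between arrays alone, and that spread may be technical.

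Expansins are cell wall proteins that loosen the wall of growing plant cells. The expansin-like A proteins share their overall fold and are placed in the same superfamily by sequence, but a wall-loosening activity has not been established for them. Brassinosteroids are plant steroid hormones that promote cell elongation. Brassinolide is the most active of them, and it is made from campestanol by a chain of oxidations and reductions. One series of intermediates carries a ketone on carbon 6 (the 6-oxo series) and a parallel series lacks it (the 6-deoxo series).

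Values are MAS5 intensities on a linear scale, given for array A and then array B of a group. Array medians ran from 33.9 to 41.0, and no 2 arrays held identical values. Of the marker genes listed for shoot (7), root (8) and seed (4), only the root hair expansins EXPA7 and EXPA18 had a named probe set, so shoot and seed RNA could not be checked by named markers. EXPA7 ran from 106 to 240.5 and EXPA18 from 115 to 343 over the 26 arrays. Because whole plants were used, more RNA per cell and more expressing cells cannot be told apart.

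Levels of the 2 probe sets are not compared with each other, since each set binds with its own strength. Along the pathway, EXLA1 stood at 28.8 and 48.0 in mock, 37.8 and 45.4 after campestanol, 73.3 and 61.6 after 6-deoxocathasterone, and 79.2 and 96.6 after cathasterone. The campestanol arrays lay inside the range of the mock arrays, while those of the later 2 compounds lay above it. With 6-deoxoteasterone EXLA1 stood at 97.0 and 165, with teasterone at 135 and 273, with 3-dehydro-6-deoxoteasterone at 191 and 254, and with 3-dehydroteasterone at 295 and 263. All of these lay above every array of mock, campestanol, 6-deoxocathasterone and cathasterone, the nearest only just (97.0 against 96.6). The share of all tested probe sets that did so was not counted, so nothing is read from this separation. EXLA1 stood at 128 and 184 after 6-deoxotyphasterol, 412 and 239 after typhasterol, 416 and 112 after 6-deoxocastasterone, 462 and 286 after castasterone, and 418 and 287 after brassinolide. The highest single arrays came from castasterone, brassinolide, 6-deoxocastasterone and typhasterol, all of them letter A.

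EXLA2 was dim in mock, at 22.6 and 11.2. It stood at 11.9 and 6.97 after campestanol, 29.9 and 17.5 after 6-deoxocathasterone, and 29.8 and 33.7 after cathasterone. Cathasterone was the earliest compound of the pathway whose arrays both lay above both mock arrays. With 6-deoxoteasterone EXLA2 stood at 34.5 and 68.6, with teasterone at 48.7 and 65.5, with 3-dehydro-6-deoxoteasterone at 62.5 and 81.6, and with 3-dehydroteasterone at 109.9 and 114. It stood at 49.5 and 62.4 after 6-deoxotyphasterol, 133 and 129 after typhasterol, 121 and 133 after 6-deoxocastasterone, 156 and 154 after castasterone, and 146 and 155 after brassinolide. From 3-dehydroteasterone on, the pair of arrays of each group lay close together, with the exception of the 6-deoxotyphasterol pair, which also stood lower than its neighbours.

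**Figure D1:**
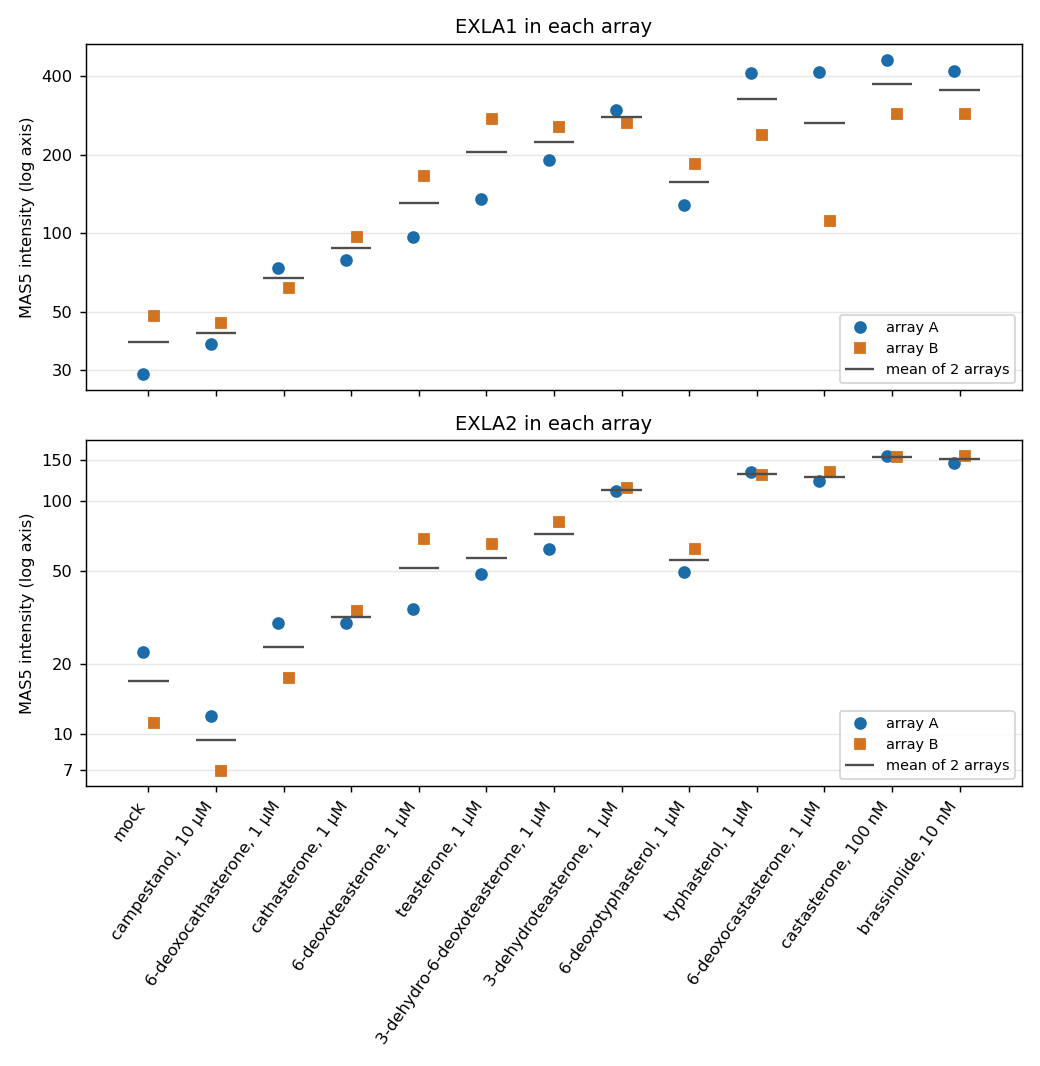
MAS5 intensity (log axis) of EXLA1 (upper panel) and EXLA2 (lower panel) in each of the 26 arrays, with groups ordered along the pathway from mock to brassinolide; circles are arrays A, squares arrays B and bars the mean of 2. The lowest group means are those of mock and campestanol and the highest those of castasterone and brassinolide in both genes, with a lower mean at 6-deoxotyphasterol than at its neighbours, and the EXLA1 arrays of 6-deoxocastasterone (416 and 112) lay far apart.

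Against mock, both arrays lay above both mock arrays for 11 of 12 compounds in EXLA1 and for 10 of 12 in EXLA2. The exceptions were campestanol for both genes and 6-deoxocathasterone for EXLA2. The share of all tested probe sets that did so was 12.9% for campestanol, 16.4% for 6-deoxocathasterone, 16% for cathasterone, 13.5% for 6-deoxoteasterone, 17.1% for 3-dehydro-6-deoxoteasterone, 14.0% for teasterone, 15.0% for 3-dehydroteasterone, 14.9% for 6-deoxotyphasterol, 18.1% for typhasterol, 19.6% for 6-deoxocastasterone, 22.0% for castasterone and 18.8% for brassinolide. Since this contrast chose the genes, nothing is read from these counts. The log2 difference from mock, on the log2(intensity + 5) scale, was 3.05 ± 0.46 for EXLA1 and 2.88 ± 0.29 for EXLA2 after brassinolide (SE, n = 2 arrays a group). After castasterone it was 3.12 ± 0.46 for EXLA1 and 2.92 ± 0.29 for EXLA2.

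The intermediates spanned a wide range in both genes. For EXLA1 the difference from mock was 0.13 after campestanol (-0.19 without array A of mock), 0.77 after 6-deoxocathasterone, 1.13 after cathasterone, 1.64 with 6-deoxoteasterone, 2.22 with teasterone, 2.41 with 3-dehydro-6-deoxoteasterone, 2.74 with 3-dehydroteasterone, 1.91 after 6-deoxotyphasterol, 2.91 after typhasterol and 2.39 after 6-deoxocastasterone, each ± 0.46. For EXLA2 it was -0.57, the only value below 0, after campestanol, and 0.41 after 6-deoxocathasterone, 0.80 after cathasterone, 1.35 with 6-deoxoteasterone, 1.54 with teasterone, 1.85 with 3-dehydro-6-deoxoteasterone, 2.47 with 3-dehydroteasterone, 1.52 after 6-deoxotyphasterol, 2.69 after typhasterol and 2.64 after 6-deoxocastasterone, each ± 0.29. Among the 9861 tested probe sets that name 1 gene, ranked by difference from mock, EXLA1 held rank 3 and EXLA2 rank 5 for both brassinolide and castasterone. For cathasterone their ranks were 12 and 72, and for campestanol 2831 and 9704.

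Put in order of level, many neighbouring groups did not differ by more than the spread within groups. For EXLA1 the fitted SD was 0.46 on the log2 scale, and of the 12 steps in the order only that to 6-deoxocathasterone from campestanol (0.64) and that to 6-deoxoteasterone from cathasterone (0.51) exceeded it without overlap of arrays. Castasterone, brassinolide, typhasterol and 3-dehydroteasterone had the top 4 means of EXLA1, with neighbours 0.17 or less apart. These 4 are not set apart from the rest. The next group, 3-dehydro-6-deoxoteasterone, stood 0.33 below 3-dehydroteasterone, less than the fitted SD. Among the B arrays, teasterone (273) stood above 3-dehydroteasterone (263) and typhasterol (239). For EXLA2, with a fitted SD of 0.29, the steps to 6-deoxoteasterone from cathasterone (0.56) and to 3-dehydroteasterone from 3-dehydro-6-deoxoteasterone (0.61) exceeded the SD without overlap. At the step from cathasterone to 6-deoxoteasterone the nearest arrays were close, at 96.6 and 97.0 in EXLA1 and 33.7 and 34.5 in EXLA2. The groups were sorted by these same values, and the share of all tested probe sets with such steps was not counted, so nothing is read from the lack of overlap. The top 5 groups of EXLA2 were castasterone, brassinolide, typhasterol, 6-deoxocastasterone and 3-dehydroteasterone, with neighbours 0.20 or less apart. The order is one of levels at the doses given, which were lower for castasterone and brassinolide and higher for campestanol than for the other 9 compounds, so it does not rank the compounds by activity.

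**Figure D2:**
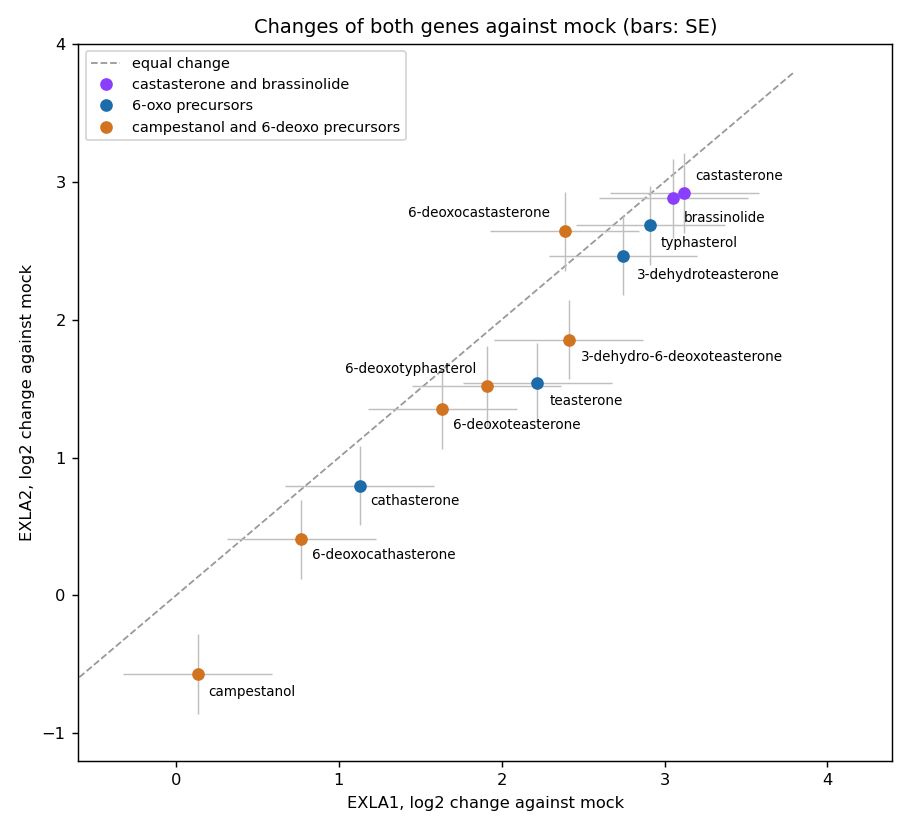
Log2 change against mock of EXLA1 (horizontal) and EXLA2 (vertical) for the 12 compounds, with SE bars and a dashed line of equal change; purple marks castasterone and brassinolide, blue the 6-oxo precursors, orange campestanol and the 6-deoxo precursors. The points run from campestanol (0.13 and -0.57) to castasterone (3.12 and 2.92), and 6-deoxocastasterone is the one compound above the line. Without its array B its changes were 3.31 and 2.58, below the line, and without array A of mock all 12 compounds lie above it.

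Whether EXLA2 and EXLA1 changed by the same amount was tested on the difference of their log2 values in each array. With mock among the groups, this draws on the changes by which both genes were chosen and is not independent of that choice. The difference between the change of EXLA2 and that of EXLA1 ran in size from 0.17 (brassinolide, -0.17) to 0.70 (campestanol, -0.70), each with a 95% interval of ± 1.23. It was below 0 for 11 compounds and 0.25 for 6-deoxocastasterone, but all 12 share the mock arrays, and the sign rests on them. Without array A of mock it was below 0 for 0 of the 12 compounds, and without array B for all 12. A permutation test did not separate the 13 groups (F = 0.418, p = 0.955, 100000 resamples, 26 arrays). Over the 12 compound groups alone, a choice made after the values were seen, the permutation p was 0.913. The intervals are wide, so the genes are not shown to respond alike. Leaving out array A of 6-deoxocastasterone gave the lowest p of the 26 such tests, 0.224.

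Compounds that differ by a named change in structure were compared with each other at 1 µM, in 11 pairs that do not involve mock. No difference of EXLA1 or EXLA2 passed the threshold: the lowest adjusted p was 0.894 for EXLA1 and 0.413 for EXLA2 (limma, Benjamini-Hochberg over all 17606 probe sets). In 10 of the 11 pairs limma called no probe set at all (0% of those tested), with 293 to 994 at an unadjusted p under 0.05. In the other pair, 6-deoxocastasterone against 6-deoxotyphasterol, 1 probe set (0.00568%) was called, and it was neither gene. That the EXLA2 mean was higher after typhasterol than after 6-deoxotyphasterol, and on average with the carbon 6 ketone, was known from earlier results of these arrays. The intervals for these comparisons are therefore not independent of that knowledge. Since the genes were chosen as high after active brassinosteroids, leaving out mock does not make the pairs fully independent of that choice.

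The ketone on carbon 6 went with higher means of both genes in each of the 4 pairs, but for EXLA2 teasterone against 6-deoxoteasterone turned to -0.26 without array A of 6-deoxoteasterone and to -0.0071 without array B of teasterone. EXLA2 stood at 133 and 129 after typhasterol, against 49.5 and 62.4 after 6-deoxotyphasterol, a log2 difference of 1.17 (95% interval 0.56 to 1.77, adjusted p = 0.705 by limma). EXLA1 stood at 412 and 239 after typhasterol, against 128 and 184 after 6-deoxotyphasterol, a difference of 1.00 (0.05 to 1.96). In both genes the typhasterol arrays lay above both 6-deoxotyphasterol arrays, as they did for 16.8% of all tested probe sets. The other 3 pairs gave smaller differences. They were 0.36 for EXLA1 and 0.39 for EXLA2 with cathasterone against 6-deoxocathasterone, 0.58 and 0.19 in the same order with teasterone against 6-deoxoteasterone, and 0.33 and 0.61 with 3-dehydroteasterone against 3-dehydro-6-deoxoteasterone. The interval left out 0 in only the last of these, for EXLA2 (0.01 to 1.21). Averaged over the 4 pairs, the difference was 0.57 for EXLA1 (0.09 to 1.05) and 0.59 for EXLA2 (0.29 to 0.89, adjusted p = 0.789 by limma), and limma called 0% of probe sets for this average, with 610 at an unadjusted p under 0.05. An F test of whether the 4 differences were unequal gave an unadjusted p of 0.712 for EXLA1 and 0.129 for EXLA2, from the limma model, and 0 probe sets passed adjustment, with 466 at an unadjusted p under 0.05.

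The hydroxyl on carbon 23, which separates teasterone from cathasterone, went with higher levels in both series. EXLA1 stood at 135 and 273 after teasterone, against 79.2 and 96.6 after cathasterone, a log2 difference of 1.09 (0.14 to 2.05). EXLA2 differed by 0.74 (0.14 to 1.35) in that pair. In the 6-deoxo series, 6-deoxoteasterone against 6-deoxocathasterone, EXLA1 differed by 0.87 (-0.09 to 1.82) and EXLA2 by 0.95 (0.34 to 1.55). The arrays did not overlap in any of these 4 comparisons. Of all tested probe sets, 10.6% lay likewise higher with teasterone than with cathasterone, and 14.8% with 6-deoxoteasterone than with 6-deoxocathasterone. Averaged over both series the difference was 0.98 for EXLA1 (0.30 to 1.66) and 0.85 for EXLA2 (0.42 to 1.27, adjusted p = 0.722 by limma). For that average 1 probe set was called (0.00568%).

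The later steps were not compared with each other, and neither gene passed adjustment at any of them. With the carbon 3 hydroxyl oxidised to a ketone, 3-dehydroteasterone stood above teasterone by 0.53 in EXLA1 (-0.43 to 1.48) and 0.92 in EXLA2 (0.32 to 1.53), and 3-dehydro-6-deoxoteasterone above 6-deoxoteasterone by 0.77 (-0.18 to 1.73) in EXLA1 and 0.50 (-0.10 to 1.11) in EXLA2. The average was 0.65 for EXLA1 (-0.03 to 1.33) and 0.71 for EXLA2 (0.29 to 1.14). Reduction of that ketone gave no average difference that could be told from 0, at -0.17 for EXLA1 (-0.84 to 0.51) and -0.06 for EXLA2 (-0.48 to 0.37). Within it, both genes stood higher after typhasterol than after 3-dehydroteasterone on average (0.17 for EXLA1, which turned to -0.22 without array A of typhasterol, and 0.22 for EXLA2) and lower after 6-deoxotyphasterol than after 3-dehydro-6-deoxoteasterone (-0.50 for EXLA1 and -0.33 for EXLA2). The hydroxyl on carbon 2 was read in the 6-deoxo series only. EXLA2 stood at 121 and 133 after 6-deoxocastasterone, against 49.5 and 62.4 after 6-deoxotyphasterol, a difference of 1.12 (0.52 to 1.73, adjusted p = 0.413 by limma). EXLA1 differed by 0.48 (-0.48 to 1.44), and leaving out array A or B of 6-deoxocastasterone gave -0.45 or 1.40.

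**Figure D3:**
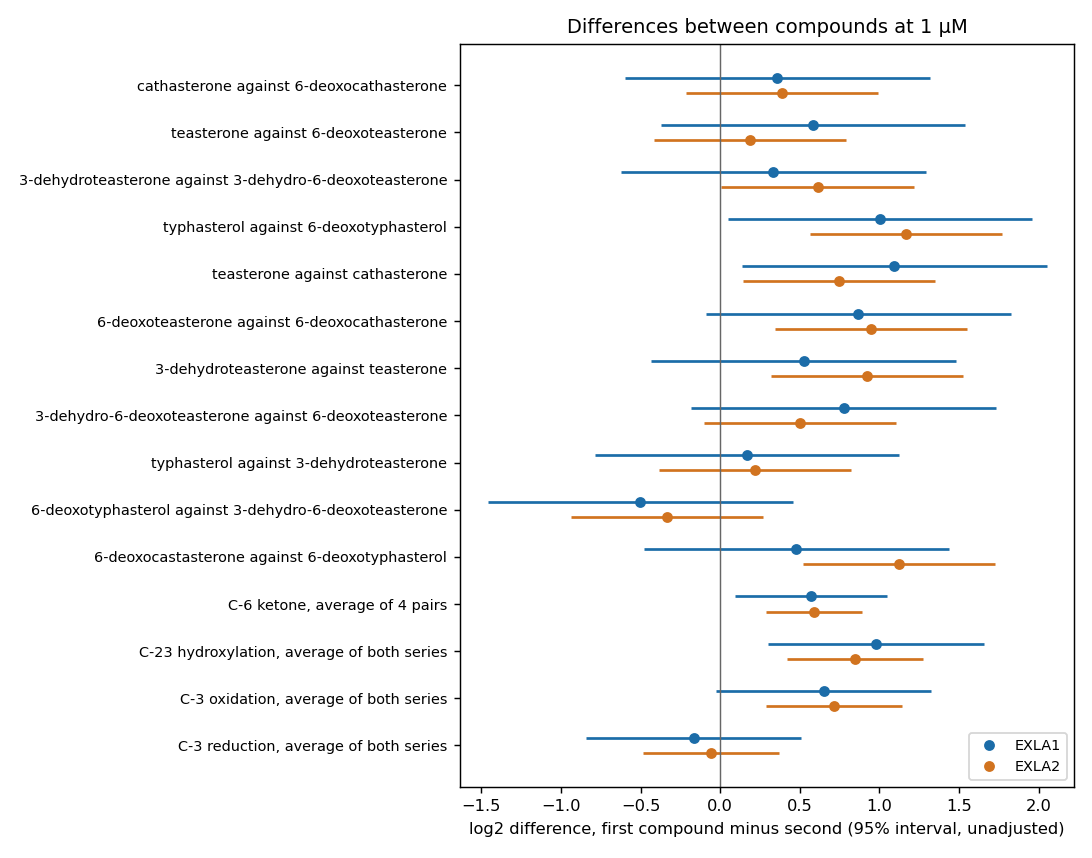
Log2 difference of EXLA1 (blue) and EXLA2 (orange) between compounds given at 1 µM, the compound named first minus the compound named second, in 11 pairs, with the averages over 4 or 2 pairs below; points are estimates and lines unadjusted 95% intervals. Most estimates lie right of 0, the EXLA2 intervals are narrower, and neither gene passed adjustment in any pair.

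The spread between arrays differed between the genes. The residual SD of EXLA1 was 0.53, larger than that of 95.2% of the tested probe sets, and that of EXLA2 was 0.31, larger than that of 65.0%. In these genes the letter did not shift the arrays in 1 direction on average. Differences of opposite sign cancel in that mean, so its test cannot show whether the letter mattered within groups. Array A minus array B averaged 0.03 in EXLA1 over 13 groups (A higher in 6, B in 7, permutation of signs, p = 0.884) and -0.03 in EXLA2 (A higher in 5, B in 8, permutation of signs, p = 0.809). Between groups, however, A minus B correlated in 76 of 78 pairs at over 0.1 (median 0.32). The main fits leave the letter out. With it as a block more probe sets were called, but neither gene was called between compounds. In EXLA1 the A minus B difference was -0.65 for mock, -0.74 for 6-deoxoteasterone and -0.99 for teasterone. It was 0.78 for typhasterol, 0.68 for castasterone, 0.53 for brassinolide and 1.85 for 6-deoxocastasterone. The last is larger in size than 99.3% of all tested probe sets in that group, while EXLA2 differed there by -0.12. For typhasterol, castasterone, brassinolide and 6-deoxocastasterone, the change of EXLA1 against mock was therefore larger between A arrays than between B arrays.

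Other members of the expansin superfamily were read from a list of 33 genes, of which 16 had a named probe set and 13 were tested. Of these, EXPA8, an alpha-expansin, was the only member called higher, by 8 compounds, and no member was called lower. EXPA8 stood at 225 and 243 after brassinolide, against 60.4 and 51.0 in mock, a log2 difference of 1.98 ± 0.23 (adjusted p = 5.2e-05 by limma). It was also called higher with teasterone, 3-dehydro-6-deoxoteasterone, 3-dehydroteasterone, 6-deoxotyphasterol, typhasterol, 6-deoxocastasterone and castasterone. For comparison, 2.02% of all tested probe sets were called higher after brassinolide, 1.78% after castasterone, 1.57% after 6-deoxocastasterone, 1.32% after typhasterol, 1.07% after 3-dehydroteasterone, 0.426% after 3-dehydro-6-deoxoteasterone, 0.278% after teasterone, 0.136% after 6-deoxotyphasterol and 0.0795% after 6-deoxoteasterone. None was called higher after cathasterone, 6-deoxocathasterone or campestanol (0%), where limma gave 563, 573 and 272 at an unadjusted p under 0.05 in that order. The share called lower was 0.557% after brassinolide, 0.596% after castasterone, 0.381% after 6-deoxocastasterone, 0.449% after typhasterol, 0.352% after 3-dehydroteasterone, 0.131% after 3-dehydro-6-deoxoteasterone, 0.0738% after teasterone, 0.0568% after 6-deoxotyphasterol and 0.0852% after 6-deoxoteasterone. The median change of the 13 was 0.13 after brassinolide, against -0.00050 over all tested probe sets.

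EXLA3, the remaining expansin-like A gene and the gene next to EXLA1 in the RefSeq gene order (assembly TAIR10.1), was dim, with a mean of 13.9 over all arrays. Its mean was 6.72 in mock, 7.45 after campestanol and 6.36 after cathasterone, below the filter of 10. EXLA3 was thus tested only because it stood higher in other groups. It stood at 17.7 and 22.4 after brassinolide, against 8.50 and 4.94 in mock, a difference of 1.11 ± 0.35 that did not pass the threshold (adjusted p = 0.138 by limma). After castasterone the difference was 1.099 ± 0.353 (adjusted p = 0.140 by limma). Probe sequences were not used here, so whether these probe sets also bind RNA of each other's genes was not tested. EXLB1 and the other 10 tested members, among them EXPA4, EXPA7, EXPA9, EXPA15, EXPA18, EXPA20, EXPB1, EXPB2, EXPB3 and EXPB5, differed from mock by between -0.65 and 0.68, and none passed (lowest adjusted p = 0.486 by limma). Of the XTH genes, whose enzymes cut and rejoin xyloglucan in the wall, 8 of 33 were tested. Limma called 4 of the 8 higher after each of 3-dehydroteasterone, typhasterol, 6-deoxocastasterone, castasterone and brassinolide, 1 after teasterone and 1 after 3-dehydro-6-deoxoteasterone. None was called higher after the other 5 compounds, and none lower after any.

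**Figure D4:**
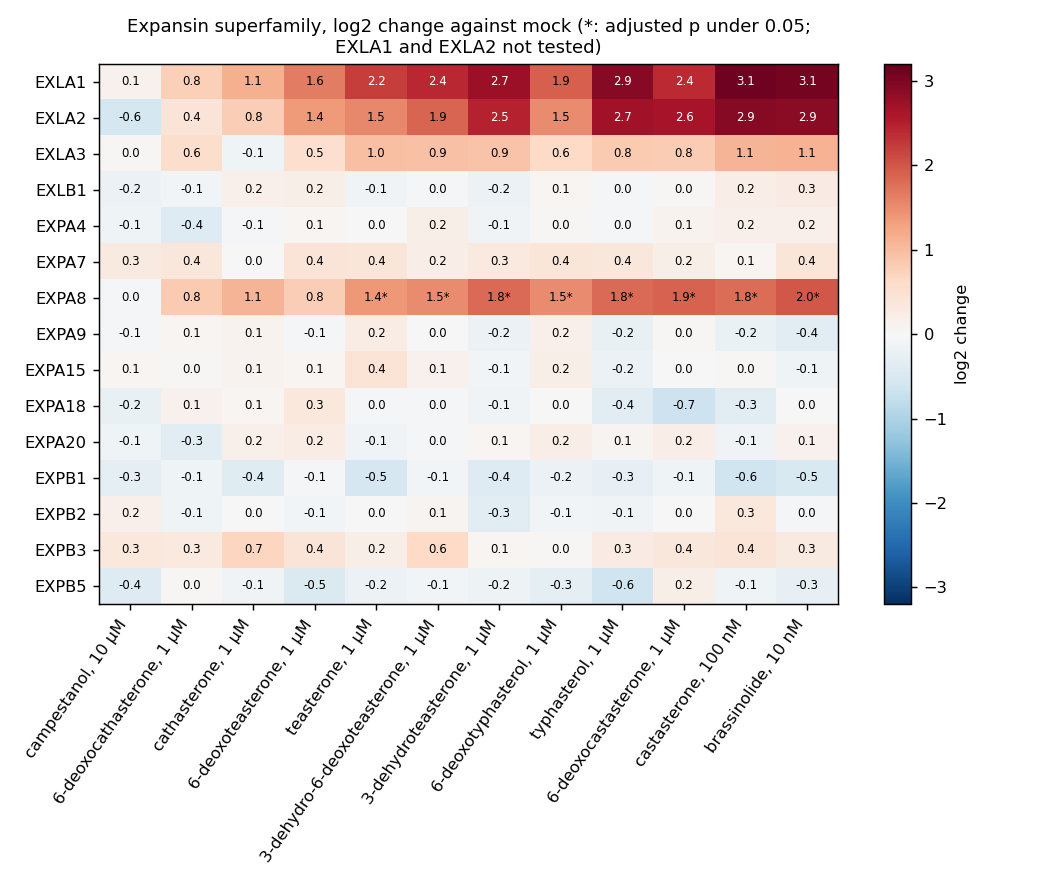
Log2 change against mock (colour and printed value) of EXLA1, EXLA2 and the 13 tested genes of the expansin list, in rows, for the 12 compounds in columns, with doses; an asterisk marks an adjusted p under 0.05, and EXLA1 and EXLA2 were not tested. EXPA8 is the only row with asterisks, up to 1.98 after brassinolide, and EXLA3 reaches 1.11.

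The 2 nearest tested genes on each side of EXLA1 and EXLA2 in that gene order did not pass the threshold with any compound. Only EXLA3 is directly adjacent, and the untested genes in between are not analysed here. The tested ones were, for EXLA1, EXLA3, AT3G45900, HTB11 (a histone H2B gene) and AT3G46110, and for EXLA2 AT4G38380, AT4G38370, AT4G38410 and IYO. Leaving EXLA3 aside, the difference nearest to the threshold was that of AT3G46110 (adjusted p = 0.395 by limma), whose changes ran from -0.84 to 0.22.

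Genes with the most similar profile were ranked by Pearson's correlation of the 13 group means, among 9860 other probe sets naming 1 gene. The groups share the brassinosteroid response and the same 26 arrays, and 1.52% of probe sets exceeded 0.9 with EXLA1 and 1.80% with EXLA2. For EXLA1 the 8 highest were XTH33 (0.989), an XTH enzyme gene, AT3G07470 (0.986), CSLC04 (0.984), a cellulose synthase-like gene, AT3G49220 (0.984), AT5G03120 (0.983), EXO (0.983), a brassinosteroid-responsive gene, AT3G06770 (0.982) and AT1G17620 (0.981). For EXLA2 they were XTH33 (0.992), AT3G19970 (0.988), AT3G06770 (0.986), AT1G29660 (0.986), AT3G50560 (0.985), CSLC04 (0.984), HMT-1 (0.984), a homocysteine methyltransferase gene, and AT1G69840 (0.982). XTH33, CSLC04 and AT3G06770 were in both lists, 3 of the 8 of each. EXLA1 and EXLA2 correlated at 0.975 with each other, rank 16 for EXLA1 and 17 for EXLA2; both were chosen for rises against mock, so this is a description. The lowest correlations were those of AT5G57785 (-0.97 with EXLA1, -0.99 with EXLA2), AT3G55960 (-0.97 and -0.98) and AT1G01490 (-0.97 and -0.98). Correlation takes no account of the size of a change. After brassinolide the most alike genes changed by between 0.66 (AT3G07470, not called, adjusted p = 0.108 by limma) and 3.69 (AT1G29660). The least alike changed by -3.64 (AT5G57785), -0.70 (AT3G55960) and -0.72 (AT1G01490).

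**Figure D5:**
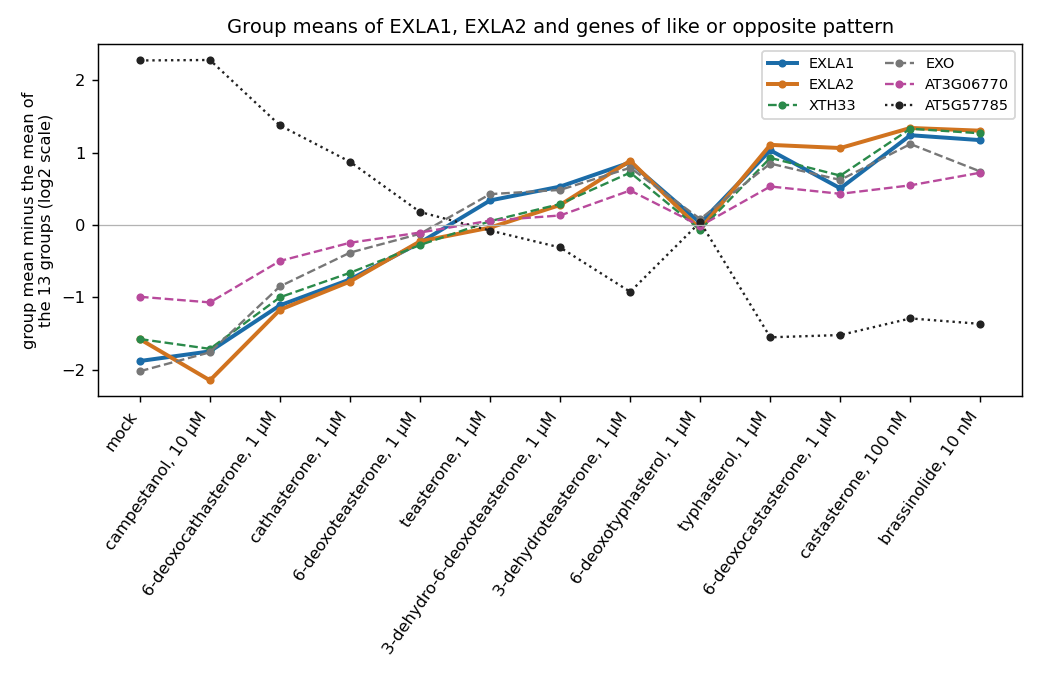
Mean log2 value of each group minus the mean over the 13 groups, for EXLA1 and EXLA2 (thick lines), XTH33, EXO and AT3G06770 (dashed) and AT5G57785 (dotted), with groups along the pathway from mock to brassinolide; lines join the groups only to guide the eye. XTH33 (r = 0.989 with EXLA1 and 0.992 with EXLA2) follows both genes through the dip at 6-deoxotyphasterol, and AT5G57785 runs the opposite way.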

How the data were processed

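The authors deposited linear intensities, 1 per probe set, made with MAS5, per the submitters' processing notes. Its version, its parameters and any detection calls were not given there. Trimmed means (2 to 98%) were 99.3 to 99.6 on every array, so no further scaling was applied. Values were transformed as log2(intensity + 5), which understates changes of dim probe sets. Of 22810 probe sets, 64 controls and those with a mean under 10 were left out, and 17606 were tested with limma 3.58.1 in R 4.3.3 (lmFit, eBayes with trend, all 26 arrays, 13 residual degrees of freedom). A platform table named 1 gene for 13513 probe sets, and 13436 were matched to RefSeq TAIR10.1. EXLA2 minus EXLA1 and letters were tested by permutation (Python 3.11.15, scipy 1.17.1, numpy 2.4.6). The named genes are the members, the tested expansins, the 8 most and 3 least alike profiles and the 2 nearest tested neighbours on each side. The members and lists were chosen with earlier results of these data known. The comparison of a step between series, and the genes whose A minus B difference correlated most with that of EXLA1, were chosen after values were seen. Alternatives covered pseudocounts, filters, normalization, the letter as a block and each array left out. The limma step was run on simulated arrays with independent noise, without the shared A minus B deviations seen here. That checked the code and does not show that differences as small as those between compounds would be called. The precision is limited by 2 arrays per group.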

Additional observations from a re-analysis of the deposited data

Results flagged for a closer look

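The EXLA2 means moved in opposite directions in the 6-oxo and 6-deoxo series at the step that reduces the carbon 3 ketone. Both 95% intervals included 0, at 0.22 (-0.38 to 0.82) in the 6-oxo series and -0.33 (-0.94 to 0.27) in the 6-deoxo series. Both typhasterol arrays (133 and 129) lay above both 3-dehydroteasterone arrays (109.9 and 114). Both 6-deoxotyphasterol arrays (49.5 and 62.4) lay below both 3-dehydro-6-deoxoteasterone arrays (62.5 and 81.6), the nearest being 62.4 against 62.5. The share of all tested probe sets doing likewise was not counted, so nothing is read from the lack of overlap. The step in the 6-oxo series minus that in the 6-deoxo series was 0.55 on the log2 scale (95% interval -0.30 to 1.41). This contrast was added after the values were seen, and limma did not separate it from 0 (unadjusted p = 0.189). For it limma called 0 of 17606 probe sets, with 604 at an unadjusted p under 0.05. For EXLA1 the same contrast was 0.67 (-0.68 to 2.02).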

How the results depend on the processing

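Neither gene was called in any pair or average of compounds under any alternative: the lowest adjusted p was 0.454 for EXLA1 and 0.135 for EXLA2 under other settings, and 0.538 and 0.166 with 1 array left out. With a pseudocount of 16, EXLA2 against mock was smaller: 1.01 (6-deoxoteasterone), 1.16 (teasterone), 1.43 (3-dehydro-6-deoxoteasterone), 1.98 (3-dehydroteasterone), 1.15 (6-deoxotyphasterol), 2.18 (typhasterol), 2.14 (6-deoxocastasterone), 2.40 (castasterone) and 2.36 (brassinolide), as its low mock values are raised most. With each array left out in turn, EXLA2 against mock ranged from -0.95 to -0.19 (campestanol), 0.023 to 0.79 (6-deoxocathasterone), 0.41 to 1.18 (cathasterone), 0.90 to 1.80 (6-deoxoteasterone), 1.16 to 1.92 (teasterone), 1.47 to 2.24 (3-dehydro-6-deoxoteasterone), 2.08 to 2.85 (3-dehydroteasterone), 1.14 to 1.90 (6-deoxotyphasterol), 2.30 to 3.07 (typhasterol), 2.26 to 3.03 (6-deoxocastasterone), 2.54 to 3.30 (castasterone) and 2.50 to 3.26 (brassinolide). EXLA1 ranged from 1.46 to 3.31 (6-deoxocastasterone), 1.73 to 2.71 (teasterone), 0.45 to 1.09 (6-deoxocathasterone) and -0.19 to 0.46 (campestanol), the last turning direction. Between compounds the direction turned, without a call and with the cause not tested, in EXLA1 for typhasterol against 3-dehydroteasterone (-0.22 to 0.56), carbon 3 reduction (-0.36 to 0.027) and 6-deoxocastasterone against 6-deoxotyphasterol (-0.45 to 1.40), and in EXLA2 for teasterone against 6-deoxoteasterone (-0.26 to 0.64) and carbon 3 reduction (-0.15 to 0.032). The A minus B mean ranged from -0.12 to 0.12 in EXLA1 and -0.10 to 0.041 in EXLA2, where quantile normalization gave 0.010 and median centring 0.047. Of the 8 most alike genes, 4 of EXLA1 and 4 of EXLA2 stayed when correlated over 26 arrays, and 5 and 3 by rank. Letters A and B shared deviations in nearly all of 78 pairs of groups (A minus B correlation -0.02 to 0.48, median 0.32, 76 over 0.1 and 1 below 0). What the letters have in common was not tested. The main fits leave the letter out, and results with it as a block are given next. With the letter as a replicate block, the lowest adjusted p was 0.454 for EXLA1 and 0.135 for EXLA2, and the p for EXLA2 minus EXLA1 was 0.985. The block raised the probe sets called to 41, against 1 without it, for 6-deoxocastasterone against 6-deoxotyphasterol, to 18, against 0, for typhasterol against 6-deoxotyphasterol, to 3, against 0, for 6-deoxoteasterone against 6-deoxocathasterone, to 10, against 0, for the carbon 6 average, to 1, against 0, for the carbon 3 oxidation average and to 9, against 1, for the carbon 23 average. Against mock, the block raised the probe sets called to 917, against 454 without it, for brassinolide, to 937, against 419, for castasterone, to 804, against 343, for 6-deoxocastasterone, to 709, against 312, for typhasterol, to 516, against 250, for 3-dehydroteasterone, to 270, against 98, for 3-dehydro-6-deoxoteasterone, to 184, against 62, for teasterone, to 105, against 34, for 6-deoxotyphasterol, to 79, against 29, for 6-deoxoteasterone, to 20, against 0, for cathasterone and to 6, against 0, for 6-deoxocathasterone, and 0 were called for campestanol either way. With it EXPA8 was also called for cathasterone, EXLA3 still was not called for brassinolide (adjusted p = 0.0620 by limma), and the XTH genes called were 1 with 6-deoxotyphasterol, 2 with 6-deoxoteasterone and 3 each with teasterone and 3-dehydro-6-deoxoteasterone.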

Other observations

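Genes whose A minus B difference correlated most with that of EXLA1 were picked after the values were seen. They are the top of 9860 correlations over 13 groups, with no share over all probe sets beside them, so nothing is read from them. Over the 13 groups, the A minus B difference of EXLA1 correlated at 0.93 with that of AT4G29950, 0.89 with AT5G03120, 0.88 with AT3G02360, 0.86 with AT5G54940 and 0.86 with AT5G44680, the 5 highest of 9860 probe sets naming 1 gene. It correlated at 0.17 with EXLA2. In 6-deoxocastasterone, where EXLA1 differed by 1.85, A minus B was smaller in all 5. It was 1.44 in AT4G29950, 1.03 in AT5G54940, 0.83 in AT5G03120, 0.82 in AT5G44680 and 0.23 in AT3G02360. AT5G03120 is also among the 8 genes most like EXLA1 over the group means.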
